A study of Mus musculus with 10 samples.

Results

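Myosins, tropomyosins and contractile actin genes were examined in cultured intestinal organoids of the mouse, small hollow bodies of gut epithelium that keep their own stem cells. They were taken from the platform's table of probe sets and genes by name: every symbol that starts with Myh, Myl or Myo and a digit, or with Tpm and a digit, together with 13 listed actin, alpha-actinin, transgelin and calponin genes, and without Myo1a and Myo7b. This gave 61 genes, each with 1 probe set, of 19505 genes on the array. Actg1, the cytoplasmic gamma-actin gene on the list, is unnamed here and was not analysed.

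The series holds 10 arrays of total RNA, 5 labelled KO for IκBα and 5 labelled WT, with no treatment named. IκBα, encoded by Nfkbia, holds NF-kB transcription factors in the cytoplasm. All 10 labels carry the mark P6, which the sources used here do not explain. They give neither the allele, nor the age, nor a promoter that drives a deletion, nor whether the samples of a group came from separate animals or cultures. The p-values therefore reflect the scatter among these 10 samples alone, and part or all of it may be technical. Values are log2 levels, and every change is KO minus WT on the log2 scale.

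Myosin motors pull on actin filaments. A conventional myosin II is built from a pair of heavy chains with essential and regulatory light chains, and in epithelial cells the nonmuscle forms tighten the belt under the cell junctions and the stress fibres. Tropomyosins lie along the filament and set which proteins reach it, while alpha-actinins, calponins and transgelins crosslink or steady it. Unconventional myosins carry vesicles or tie membrane to actin, and in the gut several of them serve the brush border. Muscle has its own heavy chains, light chains and actins. Many contractile genes carry a CArG box, the binding sequence of serum response factor, near their start.

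Some facts apply to the whole data set. Nfkbia, the check of the labels, lay at 4.72 to 5.34 in the KO arrays, against 8.95 to 9.85 in the WT arrays. The Y-linked transcripts Eif2s3y (3.74 to 4.27 in KO, against 8.79 to 9.63 in WT), Uty and Kdm5d were also lower in all KO arrays, so a difference in the sex of the source and the KO label cannot be told apart. The 8 spike-in control RNAs were all lower in KO, by a median of -0.52 and at most -0.85, and their part in changes of that size was not tested. The median level of the arrays was 6.63 to 6.67 in KO and 6.53 to 6.60 in WT. Of 10 intestinal epithelium markers, 9 lay above the 95th percentile of the negative control probe sets in all 10 arrays; that percentile was 7.17 to 7.77 in KO arrays and 7.26 to 7.59 in WT arrays. None of 9 smooth muscle, 9 fibroblast, 5 endothelial, 5 immune or 3 nerve and glia markers did so, and neither did any of 9 striated muscle markers. The epithelial markers moved with the groups as well: Krt18 (1.43), Cldn3 (0.64), Cdh1 (0.45) and Krt8 (0.43) were higher and Cdx2 (-2.16), Vil1 (-1.03) and Cldn7 (-0.46) lower in KO, and their part in the changes of the members was not tested. Among the markers of other cell types, Lum and Lyz2 were lower and Itgam and Tnni2 higher in KO. Lyz2 lay above that percentile in all 5 WT arrays (8.50 to 9.10, against 4.32 to 4.78 in KO, change -4.18), and Tnni2 in all 5 KO arrays. The mean level of the smooth muscle list was 5.22 to 5.77 in KO and 5.26 to 5.47 in WT. This percentile is a strict line and was not used to call a gene absent.

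The start regions that bear on the contractile family are shown first, because a CArG box stands in some members that rose and in some that fell. RefSeq (build GRCm38.p6) gave windows from 250 bases before to 50 bases after an annotated start for 54 of the 61 members, 66 windows in all. The windows below are those with a CArG box among members that passed the test described next. Each reads 5′ to 3′ on the gene's strand, and capitals mark the CArG box.
Cnn2, chr10:79988350-79988649, plus strand: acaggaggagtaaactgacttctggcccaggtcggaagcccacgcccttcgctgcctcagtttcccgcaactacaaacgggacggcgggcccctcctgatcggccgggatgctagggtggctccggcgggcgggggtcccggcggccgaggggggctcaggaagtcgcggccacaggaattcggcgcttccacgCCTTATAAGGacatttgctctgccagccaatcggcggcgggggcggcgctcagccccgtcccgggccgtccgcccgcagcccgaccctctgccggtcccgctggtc
Myo1e, chr9:70207100-70207399, plus strand: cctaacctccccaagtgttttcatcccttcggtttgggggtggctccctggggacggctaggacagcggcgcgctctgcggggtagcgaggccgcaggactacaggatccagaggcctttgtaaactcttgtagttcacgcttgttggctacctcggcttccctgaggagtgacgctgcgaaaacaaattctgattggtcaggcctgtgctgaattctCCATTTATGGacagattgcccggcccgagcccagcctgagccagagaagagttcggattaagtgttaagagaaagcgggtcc
Myl6, chr10:128492960-128493259, minus strand: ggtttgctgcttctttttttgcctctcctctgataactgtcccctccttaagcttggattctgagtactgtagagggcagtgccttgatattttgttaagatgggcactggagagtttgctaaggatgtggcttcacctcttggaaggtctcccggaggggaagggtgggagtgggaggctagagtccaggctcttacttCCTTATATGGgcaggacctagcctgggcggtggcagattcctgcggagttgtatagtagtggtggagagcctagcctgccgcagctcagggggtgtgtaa
Acta1, chr8:123894726-123895025, minus strand: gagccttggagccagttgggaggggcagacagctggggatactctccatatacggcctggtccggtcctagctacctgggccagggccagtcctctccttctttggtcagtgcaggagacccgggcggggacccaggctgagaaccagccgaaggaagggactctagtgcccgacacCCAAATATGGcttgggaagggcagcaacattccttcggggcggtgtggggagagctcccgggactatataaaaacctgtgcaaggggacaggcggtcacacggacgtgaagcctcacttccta
Myl7, chr11:5898733-5899032, minus strand: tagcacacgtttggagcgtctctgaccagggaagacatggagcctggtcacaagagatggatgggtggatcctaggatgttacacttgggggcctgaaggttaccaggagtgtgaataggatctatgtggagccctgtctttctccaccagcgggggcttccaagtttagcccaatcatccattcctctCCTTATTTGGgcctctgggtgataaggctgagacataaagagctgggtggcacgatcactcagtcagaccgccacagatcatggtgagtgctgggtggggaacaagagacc
Cnn2, Myo1e and Myl6 were higher and Acta1 and Myl7 lower in KO organoids, so these letters stood in front of genes called in opposite directions. Myl7 lay above the 95th percentile of the negative controls in 1 WT array and 0 KO arrays, and its groups overlapped. Acta1 lay above it in 3 WT and 0 KO arrays, Cnn2 in 2 WT and 5 KO arrays, and Myo1e and Myl6 in all 10. The first base of the box lay 56 bases before the start of Cnn2, 32 before that of Myo1e, 50 before that of Myl6, 73 before that of Acta1 and 61 before that of Myl7.

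A CArG box was found in 10 of the 66 member windows (15.2%), against 535 of all 32851 RefSeq windows of this length (1.63%). It stood in 3 of 17 members that were higher in KO, 2 of 3 that were lower and 5 of 34 that did not pass, counting members with a window. The MCAT element, CATTCC or GGAATG on the other strand, is the sequence that TEAD factors bind. It was found in 28.8% of the member windows and in 14.7% of all windows. The kappaB site, which NF-kB binds, was found in 13.6% of the member windows and in 8.46% of all windows, on either strand. Acta1 and Myl7 held both a CArG box and an MCAT element, and so did Myl3 and Myh4, which did not pass. These matches are descriptions of letters in a window and were not tested.

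All 4 tropomyosins, 2 of 3 nonmuscle myosin II heavy chains and 3 of 5 nonmuscle and smooth muscle light chains were higher in KO organoids, and 0 of the 17 muscle-type chains were. None of those 17 chains lay above the 95th percentile of the negative controls in all 10 arrays, where 22 of the 44 other members did. Levels this low cannot show whether the muscle-type chains followed the others. Outside the muscle-type chains, 18 of 44 members were higher, 4 lower and 22 did not pass. Of the 61 members, 18 were higher and 5 lower in KO and 38 did not pass (limma, adjusted p under 0.05 over all 19572 probe sets with a gene symbol). Over all tested probe sets, 15.0% were higher and 11.7% lower. With no overlap of the groups as well, 16 members were higher and 2 lower, where 11.9% and 8.51% of all probe sets were. Over 2-fold, 6 were higher and 1 lower, where 6.66% and 4.87% of all probe sets were. The median change of the 61 members was 0.09, against -0.01 over all tested probe sets. Without KO replicate 1, 3 or 5 only 2 members were lower, and without WT replicate 2, 4 or 5 only 3 were; the count of higher members was 16 or 17 whichever array was left out.

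**Figure D1:**
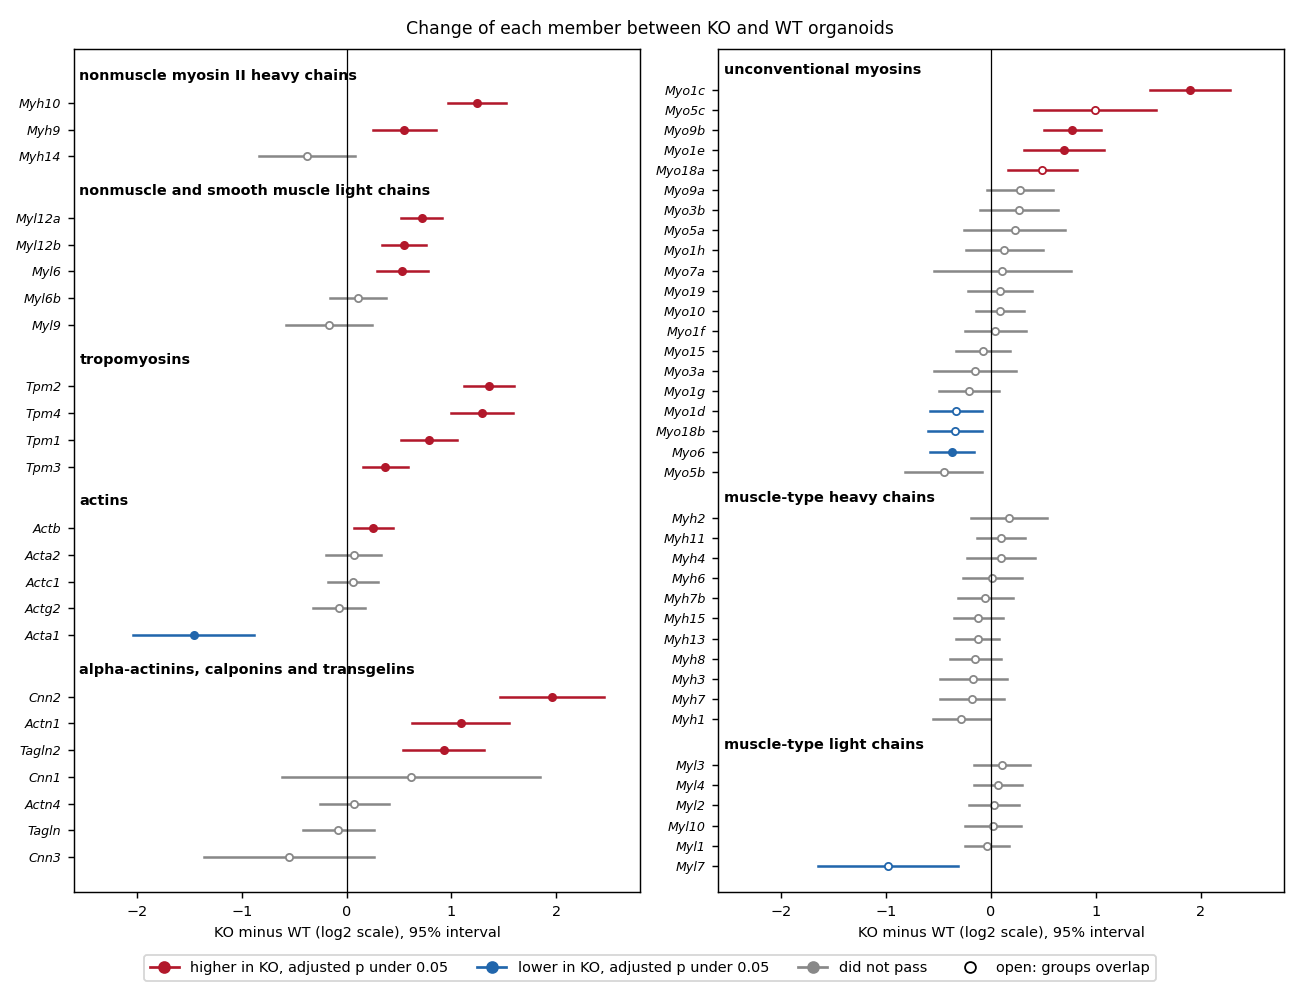
Change of each of the 61 members between KO and WT organoids (KO minus WT, log2 scale, with 95% interval), grouped by role; red is higher and blue lower in KO at an adjusted p under 0.05, grey did not pass, and open points have overlapping groups. All 4 tropomyosins lie to the right of 0, from 0.37 to 1.36, while the 11 muscle-type heavy chains lie between -0.28 and 0.17.

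Among the heavy chains of nonmuscle myosin II, the motor of the junctional belt, 2 of 3 rose. Myh9, the main form in many epithelia, had 11.63, 11.51, 11.65, 11.36 and 11.70 in KO arrays, against 10.70, 11.12, 11.30, 10.76 and 11.21 in WT arrays. The lowest KO array stood just above the highest WT array, and the change came to 0.55 (standard error 0.14; 1.47-fold; limma, adjusted p = 0.0102). Myh10 lay at 4.76, 5.07, 5.35, 4.94 and 4.99 in KO arrays, against 3.64, 4.02, 3.86, 3.70 and 3.66 in WT arrays. The groups did not overlap and the change came to 1.25 (standard error 0.13; limma, adjusted p = 1.7e-05), but all these levels lay under the 95th percentile of the negative controls, so no fold is given. Myh14, the remaining form, averaged 8.37 ± 0.15 in KO and 8.75 ± 0.50 in WT (SD, n = 5 each). WT arrays 1 and 4, at 9.28 and 9.27, lay well above every KO array, WT array 2, at 8.57, just above the highest, and the other WT arrays among the KO values. Its change of -0.38, with a 95% interval from -0.84 to 0.08, did not pass (limma, adjusted p = 0.221).

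The light chains that accompany these motors rose as well, 3 of 5. Myl12a, a regulatory light chain whose phosphorylation switches the motor on, had 11.73, 11.64, 11.63, 11.63 and 11.78 in KO arrays, against 11.04, 11.03, 10.85, 11.02 and 10.88 in WT arrays. Both groups were tight and far apart, with a change of 0.72 (standard error 0.09; 1.64-fold; limma, adjusted p = 7.7e-05). Its near copy Myl12b lay at 12.02 to 12.27 in KO and 11.42 to 11.74 in WT, a change of 0.55 (1.46-fold; limma, adjusted p = 0.00111). Both map to chromosome 17, and since probe sequences were not used here, signal shared between such copies could not be separated. Myl6, the essential light chain, had 10.44, 10.68, 10.53, 10.69 and 10.63 in KO arrays, against 10.23, 10.06, 9.76, 10.14 and 10.11 in WT arrays, a change of 0.53 (1.45-fold; limma, adjusted p = 0.00326). Myl9, the regulatory light chain of smooth muscle, averaged 6.17 ± 0.32 in KO and 6.33 ± 0.33 in WT (SD, n = 5 each), and its groups overlapped (change -0.17, 95% interval -0.57 to 0.24). Myl6b did not pass either (0.11). All levels of Myl9 and Myl6b lay under the 95th percentile of the negative controls. The 3 light chains that rose all had levels of at least 9.76 in every array.

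All 4 tropomyosin genes were higher in every KO array than in every WT array. Tpm2 had 8.17, 8.30, 8.17, 8.36 and 8.27 in KO arrays, against 7.13, 6.91, 6.90, 6.92 and 6.61 in WT arrays. The KO arrays lay close together, and the change came to 1.36 (standard error 0.11; limma, adjusted p = 2.3e-06). All 5 WT levels of Tpm2 lay under the 95th percentile of the negative controls, so no fold is given. Tpm4, a short cytoplasmic form of nonmuscle cells, had 10.71, 10.96, 10.99, 10.50 and 10.87 in KO arrays, against 9.72, 9.28, 9.76, 9.41 and 9.40 in WT arrays (change 1.29, standard error 0.13; 2.45-fold; limma, adjusted p = 1.9e-05). Tpm1 rose by 0.78 (11.02 to 11.48 in KO, against 10.31 to 10.75 in WT; limma, adjusted p = 0.000497). Tpm3 rose least, by 0.37 (12.00 to 12.16 in KO, against 11.49 to 11.92 in WT; limma, adjusted p = 0.0162), which is a smaller size than the median spike-in shift. That shift went the other way. Each of these genes makes several isoforms, and 1 probe set per gene does not tell them apart.

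**Figure D2:**
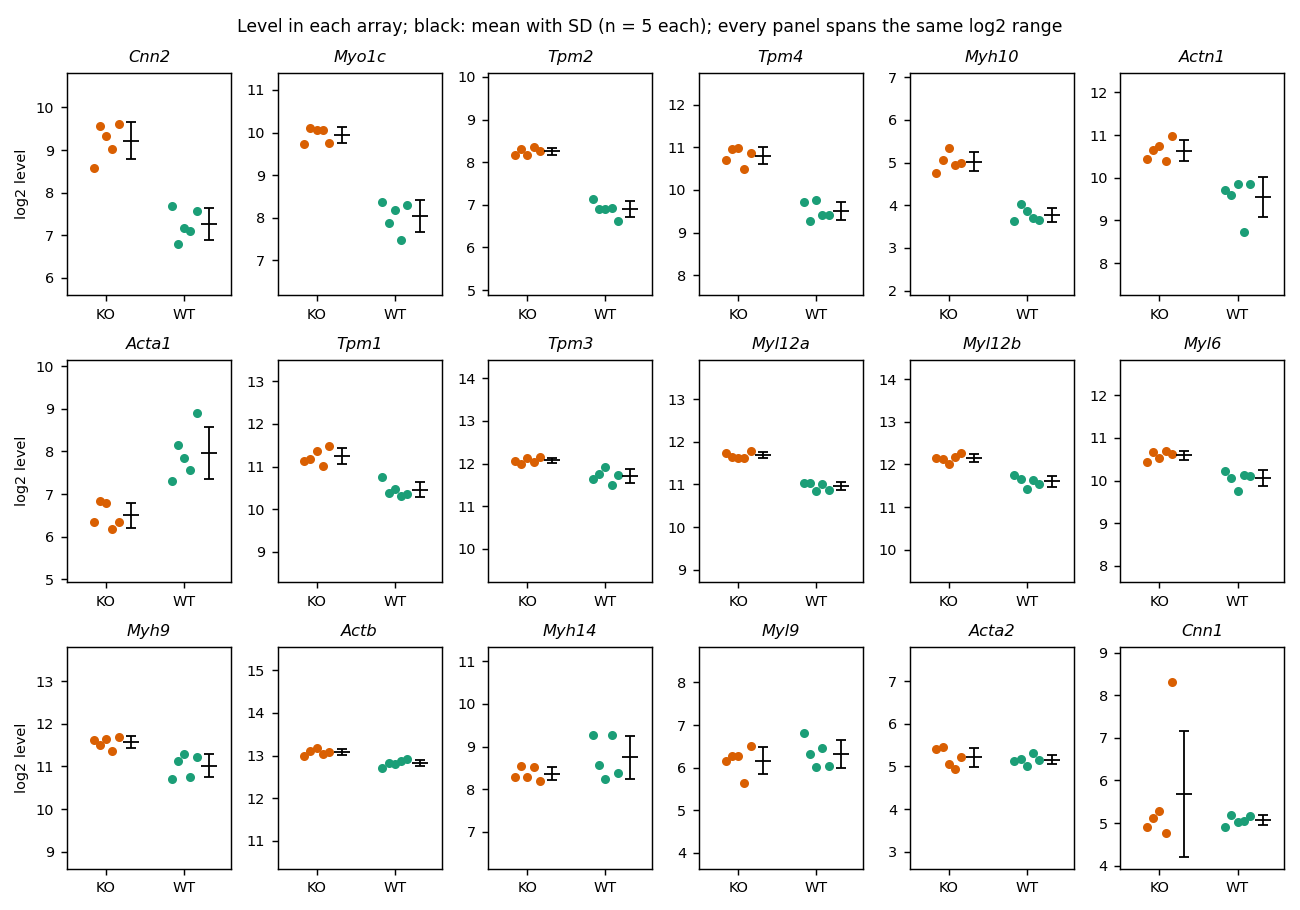
Log2 level in each array for 18 members, with KO on the left and WT on the right of every panel; points are arrays and the black bar is the mean with SD (n = 5 each), and all panels span the same range. Tpm2, Tpm4, Myo1c and Cnn2 separate fully with the KO arrays on top, Acta1 separates with the WT arrays on top, and a single KO array carries the high value of Cnn1.

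The actins split. Actb, the cytoplasmic beta-actin often used as a reference gene, had 12.99, 13.11, 13.18, 13.04 and 13.08 in KO arrays, against 12.71, 12.82, 12.81, 12.86 and 12.91 in WT arrays. The groups did not overlap, but the change was only 0.26 (1.19-fold; limma, adjusted p = 0.0468), smaller than the median spike-in shift, and it did not pass whichever of the 10 arrays was left out (limma, adjusted p = 0.0569 to 0.0988). The spike-in shift went the other way. Acta1, the skeletal muscle actin, went the other way with 6.35, 6.83, 6.78, 6.19 and 6.34 in KO arrays, against 7.31, 8.16, 7.85, 7.57 and 8.89 in WT arrays. Every WT array lay above every KO array, and the change came to -1.46 (standard error 0.26; limma, adjusted p = 0.00142). The KO levels lay under the 95th percentile of the negative controls, and so did 2 of the 5 WT levels, so no fold is given. Acta2, the smooth muscle actin used as a mark of myofibroblasts, lay at 4.94 to 5.46 in KO and 5.02 to 5.31 in WT (change 0.07, 95% interval -0.20 to 0.33). Actg2 (-0.07) and the cardiac Actc1 (0.06) did not pass. All levels of Acta2 and Actg2 lay under the 95th percentile of the negative controls. Cross-hybridisation between these closely similar actins could not be assessed here.

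Among the proteins that crosslink or steady the filaments, 3 of 7 rose and 0 fell. Cnn2, a calponin of nonmuscle cells, had 8.57, 9.56, 9.34, 9.03 and 9.61 in KO arrays, against 7.68, 6.79, 7.17, 7.10 and 7.58 in WT arrays, and the groups lay well apart (change 1.96, standard error 0.23; limma, adjusted p = 4.4e-05). Of its WT levels, 3 of 5 lay under the 95th percentile of the negative controls, so no fold is given. Actn1, an alpha-actinin of stress fibres and adhesions, had 10.43, 10.65, 10.75, 10.39 and 10.97 in KO arrays, against 9.71, 9.60, 9.86, 8.73 and 9.85 in WT arrays (change 1.09, standard error 0.21; 2.12-fold; limma, adjusted p = 0.0024). WT array 4 was far below the other WT arrays, and the other 4 still lay below all KO arrays. Tagln2, a transgelin of nonmuscle cells, lay at 10.91 to 11.48 in KO and 9.74 to 10.57 in WT (change 0.93; limma, adjusted p = 0.00202). Actn4, the other alpha-actinin here, averaged 11.76 ± 0.24 in KO and 11.69 ± 0.24 in WT (SD, n = 5 each) and did not pass.

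The smooth muscle members of the same families, Tagln and Cnn1, did not pass. All levels of Tagln, and all of Cnn1 except KO array 5, lay under the 95th percentile of the negative controls. Such levels cannot show whether these genes followed the others. Tagln, a classic smooth muscle marker, lay at 4.50 to 5.01 in KO and 4.66 to 5.26 in WT (change -0.08). Cnn1, the smooth muscle calponin, had 4.91, 5.12, 5.29, 4.76 and 8.30 in KO arrays, against 4.90, 5.18, 5.02, 5.05 and 5.17 in WT arrays. Only KO array 5 stood out, and without it the change of 0.61 became -0.04 (limma, adjusted p = 0.866). Of the other smooth muscle markers, Smtn (8.68), Myh11 (6.23) and Actg2 (5.43) were also at their highest KO value in that array, while Des, Myocd, Lmod1, Synpo2 and Pln were not, and their part in the Cnn1 value was not tested. Cnn3, another calponin, lay at 8.62 to 9.48 in KO, against 9.34, 9.72, 10.25, 7.99 and 10.12 in WT arrays. WT array 4 was the lowest of all 10, and the change of -0.55 did not pass (limma, adjusted p = 0.322) but did so without that array, at -0.93 (limma, adjusted p = 0.00952). Bulk levels cannot tell fewer cells of a type from less RNA per cell.

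**Figure D3:**
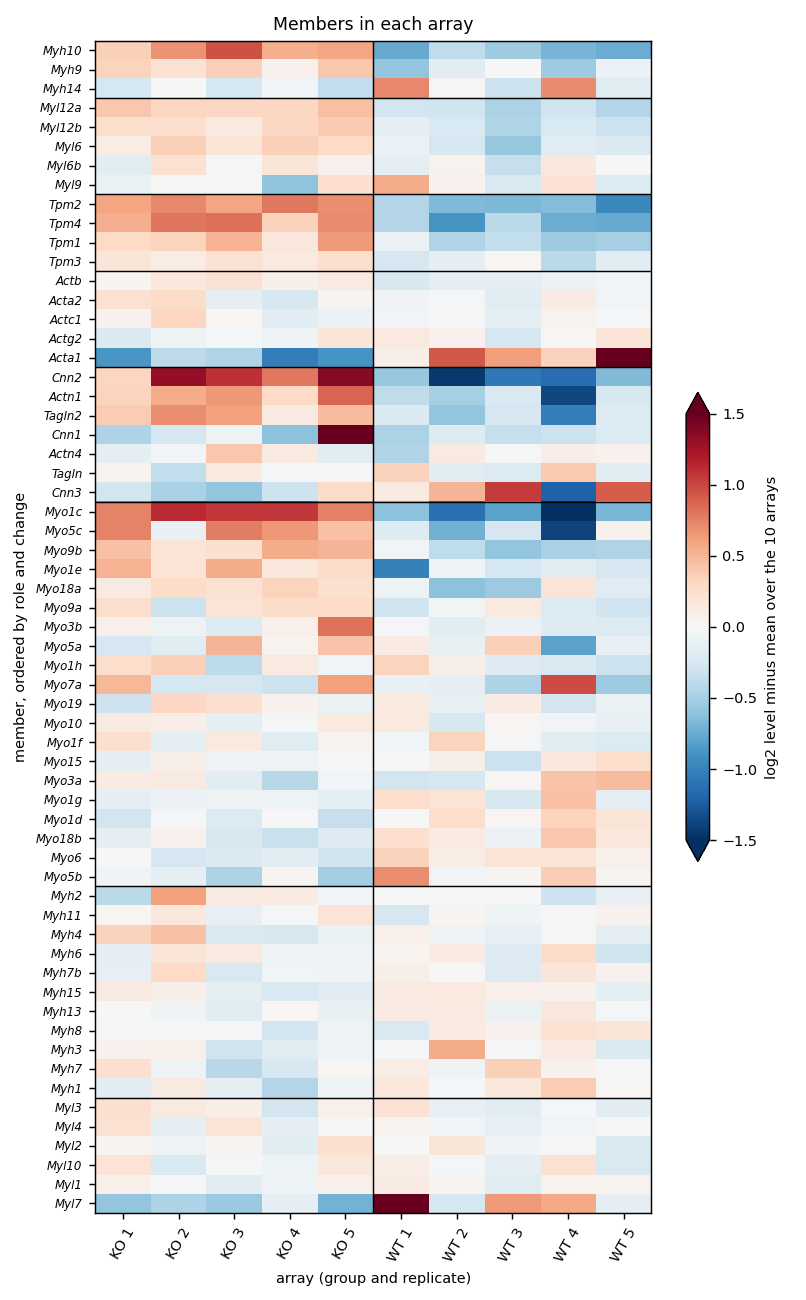
Each of the 61 members (rows, by role and change) in each array (columns, KO then WT), as log2 level minus the mean over the 10 arrays; the colours end at -1.5 and 1.5. Tpm1, Tpm2, Tpm4, Cnn2, Actn1, Tagln2 and Myo1c are red in all 5 KO arrays and blue in all 5 WT arrays, and the muscle-type chains show little colour apart from Myl7.

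Of the 20 unconventional myosins 5 rose, 3 fell and 12 did not pass, with a median change of 0.10. For comparison, 15.0% of all tested probe sets rose and 11.7% fell. Whether this group differed from these shares was not tested. Myo1c, which links membranes and vesicles to cortical actin, had 9.74, 10.11, 10.05, 10.05 and 9.75 in KO arrays, against 8.38, 7.87, 8.19, 7.47 and 8.30 in WT arrays. No WT array came within 1 unit of a KO array, and the change came to 1.90 (standard error 0.17; 3.73-fold; limma, adjusted p = 6.4e-06). Its level in WT array 4 lay under the 95th percentile of the negative controls. Myo5c, a vesicle motor of glandular epithelia, had 9.60, 8.74, 9.62, 9.51 and 9.30 in KO arrays, against 8.66, 8.14, 8.61, 7.47 and 8.92 in WT arrays. The groups overlapped through KO array 2 and WT array 5 (change 0.99; limma, adjusted p = 0.0158), and WT array 4 again lay under that percentile. Myo9b lay at 9.32 to 9.67 in KO and 8.52 to 9.08 in WT (change 0.78; limma, adjusted p = 0.000616). Myo1e, a class I myosin of endocytosis and adhesion, lay at 9.32 to 9.71 in KO and 8.14 to 9.10 in WT (change 0.70; limma, adjusted p = 0.0114), with WT array 1 far below the rest.

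Myo18a and Myo18b passed narrowly. Both changes were smaller in size than the median spike-in shift, which had the direction of the Myo18b change. Myo18a, a myosin linked to the Golgi, changed by 0.49 with overlapping groups (limma, adjusted p = 0.0317), and the call was lost when KO array 2, 3, 4 or 5, or WT array 2, 3 or 5, was left out (limma, adjusted p = 0.053 to 0.0781), with changes of 0.39 to 0.60 over the 10 such fits. Myo18b changed by -0.34 (limma, adjusted p = 0.0499) and did not pass when KO array 1, 3, 4 or 5, or WT array 1, 2, 4 or 5, was left out (limma, adjusted p = 0.079 to 0.118), with changes of -0.41 to -0.28 over the 10 such fits, and its levels lay under the 95th percentile of the negative controls in every array.

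Of the members not yet described, Myo6 and Myo1d fell. Myo6, which walks towards the pointed end of filaments, had 10.11, 9.86, 9.89, 9.95 and 9.81 in KO arrays, against 10.46, 10.22, 10.31, 10.30 and 10.18 in WT arrays. The groups did not overlap (change -0.37, standard error 0.10; 1.29-fold lower in KO; limma, adjusted p = 0.0139), though the size is under the median spike-in shift, which went the same way. Myo1d, a class I myosin of the brush border, lay at 11.09 to 11.44 in KO and 11.42 to 11.77 in WT (change -0.33; limma, adjusted p = 0.0464), also under that shift in size and in its direction. It did not pass when KO array 1, 3 or 5, or WT array 2, 4 or 5, was left out (limma, adjusted p = 0.0836 to 0.114), with changes of -0.38 to -0.29 over the 10 such fits. Myo5b, the apical recycling motor whose human gene is mutated in microvillus inclusion disease, averaged 7.86 ± 0.25 in KO and 8.31 ± 0.31 in WT (SD, n = 5 each), and its change of -0.45 did not pass (limma, adjusted p = 0.0705; 0.0339 with the replicate number as a block). The brush border motors Myo1a and Myo7b, which the choice of members leaves out, changed far more, by -3.56 and -3.42. Myo10, the motor of filopodia, did not pass (0.09), nor did Myo7a (0.11), whose WT array 4 at 10.95 lay above every other array. The 9 others that did not pass, among them Myo5a, Myo19 and Myo9a, lay between -0.21 (Myo1g) and 0.28 (Myo9a).

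The muscle-type chains gave almost no differences. None of the 11 heavy chains passed, with changes from -0.28 to 0.17, and none of the 17 muscle-type chains lay above the 95th percentile of the negative controls in all 10 arrays. Levels this low cannot show whether these genes followed the others. The heavy chains include Myh11 of smooth muscle (6.08 ± 0.14 in KO and 5.98 ± 0.12 in WT; SD, n = 5 each) and the cardiac Myh6 (0.01) and Myh7 (-0.18). Myh1, Myh2, Myh3, Myh4, Myh8 and Myh13, heavy chains of skeletal muscle, all map to chromosome 11 in RefSeq and changed by -0.28, 0.17, -0.17, 0.10, -0.15 and -0.13. Of the 6 light chains, Myl7 of the cardiac atrium fell and the other 5 did not pass. Myl7 had 5.48, 5.60, 5.51, 5.93 and 5.36 in KO arrays, against 7.70, 5.81, 6.71, 6.64 and 5.92 in WT arrays. Only its level in WT array 1 lay above the 95th percentile of the negative controls. KO array 4 overlapped the low WT arrays, and the call (change -0.98; limma, adjusted p = 0.0334) was lost when KO array 1, 2, 3 or 5, or WT array 3 or 4, was left out (limma, adjusted p = 0.0537 to 0.0762).

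Members differed in how far the arrays of a group lay apart. The SD of a member over the arrays of its group had a median of 0.19 in KO and 0.18 in WT, and reached 1.48 in KO (Cnn1) and 0.91 in WT (Cnn3). WT array 4 held the lowest WT value of 6 of the 18 members that rose, among them Actn1, Myo1c, Myo5c and Tagln2, and WT array 5 of 1. Among the KO arrays, replicate 4 held the lowest value of 7 of the 18 and replicate 5 of 0.

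The rest of the actomyosin system was read from 4 lists of genes that are no members. These lists were chosen with earlier results of these data known, so their counts are not independent evidence. Over all tested probe sets, 15.0% rose and 11.7% fell, and whether a list differed from these shares was not tested. Of 20 measured crosslinkers and adhesion plaque genes 10 rose and 2 fell, with a median of 0.35. The leading ones were Cald1, the caldesmon that regulates myosin binding (3.53; limma, adjusted p = 1.69e-07), Flna, the filamin that crosslinks cortical actin (3.77), the LIM protein Csrp1 (2.83) and vinculin, Vcl (1.39). All WT levels of Cald1 lay under the 95th percentile of the negative controls. Flna had 11.77, 11.48, 11.64, 11.00 and 11.55 in KO arrays, against 8.13, 7.55, 8.18, 6.56 and 8.15 in WT arrays, so the groups lay more than 2 units apart. Its level in WT array 4 lay under the 95th percentile of the negative controls. The 2 lower genes, named after their values were seen, were Lima1 (-0.65) and Tln2 (-0.57). Both changes lay within the spike-in shifts of -0.10 to -0.85, whose part was not tested. Tln2 lay above the 95th percentile of the negative controls in 1 WT array and 0 KO arrays. The count of lower genes became 1 when KO array 1, 4 or 5, or WT array 1, 2, 3 or 5, was left out, where Tln2 lost its call, and 3 without WT replicate 4, where Actn2 (-0.31 over all arrays), also named for this, passed as well. Pdlim5 (0.39), 1 of the higher genes and also named for this, lost its call in 9 of the 10 such fits.

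Of 18 measured kinase and phosphatase genes of the myosin light chain 4 rose (22.2%) and 2 fell (11.1%), with a median of 0.12. These shares were near the 15.0% and 11.7% of all tested probe sets. Mylk, the kinase that phosphorylates the regulatory light chains, had 6.80, 6.80, 7.77, 7.20 and 8.26 in KO arrays, against 5.46, 5.49, 5.63, 5.76 and 5.70 in WT arrays (change 1.76; limma, adjusted p = 0.000287), with every KO array above every WT array. Dapk1, another kinase of this chain, rose by 4.45 and its relative Dapk3 by 0.67, while Ppp1r14d, an inhibitor of the light chain phosphatase, fell by 3.33. The WT levels of Mylk and Dapk1 and the KO levels of Ppp1r14d all lay under the 95th percentile of the negative controls, so no fold is given. Of the KO levels of Mylk, only 2 of 5 lay above it. The other lower gene, Ppp1r12b (-0.36), was named after its value was seen and did not pass when KO array 2, 3, 4 or 5, or WT array 1, 3, 4 or 5, was left out (limma, adjusted p = 0.0535 to 0.0953). All its levels lay under the 95th percentile of the negative controls. The median spike-in shift was larger in size and went the same way.

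**Figure D4:**
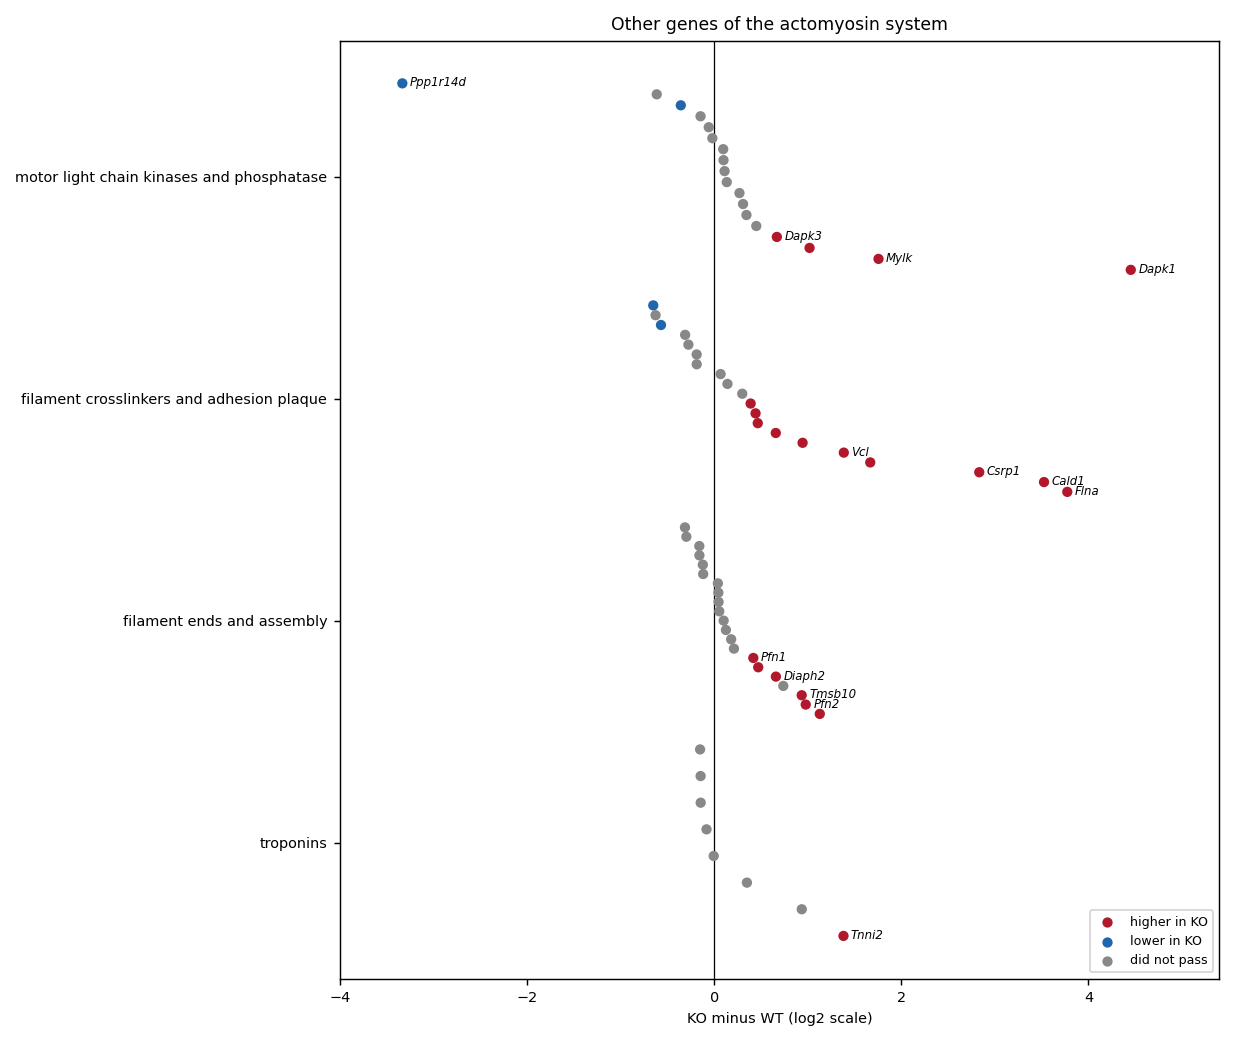
Change of each measured gene of 4 lists of other actomyosin genes (KO minus WT, log2 scale), 1 point a gene, ordered by change within its list; red is higher and blue lower in KO at an adjusted p under 0.05, grey did not pass, and the names are called genes among the 4 smallest p of a list. Flna, Cald1, Csrp1 and Dapk1 lie beyond 2.5 on the right and Ppp1r14d beyond -3 on the left.

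Of 21 measured genes of filament ends and assembly 6 rose (28.6%) and 0 fell, with a median of 0.10, where 15.0% and 11.7% of all tested probe sets did. Profilins Pfn2 and Pfn1, which feed actin to growing ends, rose by 0.98 and 0.42, the actin-sequestering Tmsb10 by 0.94 and the formin Diaph2 by 0.66. All levels of Pfn2 lay under the 95th percentile of the negative controls. Without WT replicate 1, 1 gene of this list fell (Lmod2, named after its value was seen). The count of higher genes became 4 without KO array 4 or WT array 2 or 3. Tmsb4x (0.47) lost its call in 7 and Capg (1.13) in 4 of the 10 fits with 1 array left out, both also named for this. Diaph2, Tmsb4x and, of the crosslinkers, Flna map to chromosome X, and the part of the sex of the source in their changes was not tested. Of the 8 troponins, the calcium switch of striated muscle, 1 rose (12.5%) and 7 did not pass. That was Tnni2, the fast skeletal troponin I, at 7.46 to 7.85 in KO and 6.13 to 6.49 in WT (change 1.38; limma, adjusted p = 2.8e-06), with all WT levels under the 95th percentile of the negative controls. A second, Tnnt2 (0.94) or Tnni3 (0.35), rose when KO array 1, 3 or 4, or WT array 1, was left out. Tnnt3, the fourth by p, changed by -0.15 and did not pass.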

How the data were processed

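Each of the 10 organoid samples (5 KO, 5 WT) was hybridised to a single array, from 100 ng of total RNA per the labels' protocols. The log2 levels of the probe sets are the authors' deposited values and were used unchanged. The submitters' processing notes name RMA and limma without versions, and the sources used here state neither a genome build nor a joint normalization of the arrays. Of 28846 probe sets, 19572 carried 1 gene symbol in the platform's table.

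A limma model (limma 3.58.1 under R 4.3.3) was fitted to all probe sets, KO minus WT, and p-values were adjusted by Benjamini-Hochberg over the 19572, with 0.05 as the threshold. Where a gene has several probe sets the one with the highest mean stands, but every member had 1. The fit was tested on simulated data. A further list of related genes is not reported here. Python 3.11.15 (pandas 2.3.3) made the tables and motif counts, and matplotlib 3.10.9 the figures. The number of arrays limits the precision.

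The members and lists were chosen with earlier results of these data known. Any member may be named. Values per array are given for members past 2-fold without overlap and for a set of nonmuscle members, and each other list contributes the 4 genes with the smallest p. KO and WT labels share replicate numbers; deviations of same-numbered arrays from their group means correlated at -0.07 to 0.36, so the numbers were not treated as pairs. The alternatives were cyclic loess, centring at the 75th percentile, removal of the dimmest 25 percent of probe sets, a trended and robust variance, array weights, the replicate block, leaving out single arrays, adjustment over every probe set, gene means over probe sets, and limma's treat at 1.2-fold.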

Additional observations from a re-analysis of the deposited data

Results flagged for a closer look

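In 6 of 122 groups of 5 arrays, 1 array lay far from the other 4 by the ratio of its gap to the range of the group (above 0.71). Chance flags about 5% of groups. In KO, array 5 was high for Cnn1, at 8.30 with the next array at 5.29, and for Myo3b, at 6.46 with the next at 5.73. KO array 2 was low for Myo9a, at 3.74 with the next at 4.25; without it Myo9a was higher in KO (change 0.39; limma, adjusted p = 0.0313), while the change over all arrays was 0.28 (limma, adjusted p = 0.192). In WT, array 4 was low for Actn1, at 8.73 with the next at 9.60, and high for Myo7a, at 10.95 with the next at 9.85. WT array 1 was low for Myo1e, at 8.14 with the next at 8.89.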

How the results depend on the processing

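Of the 23 members that passed, 12 kept direction and call in every alternative run for them, which were 19, or 18 for Myh10, which is not tested once the dimmest probe sets are left out, and none of the 23 changed direction. Myh9, Myl6, Myo1e, Myo5c, Myo6 and Tpm3 lost the call only against a 1.2-fold change (limma's treat). Actb, Myl7, Myo18a, Myo18b and Myo1d lost it in 8 to 15 alternatives. Against a 1.2-fold change 11 members were higher and 1 lower in KO, and 3034 probe sets passed in all. With the adjustment over all probe sets, 3 members were lower. The count of lower members was 2 to 4 with 1 array left out.

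With the replicate number as a block, 17 members were higher and 4 lower and 4913 probe sets passed; Actb, Myo18b and Myo1d lost the call and Myo5b gained it (limma, adjusted p = 0.0339), and no other member's call changed. The correlation of same-numbered arrays was above 0.1 for 2 of the 5 numbers.

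In the lists of other genes, 2 troponins rose with cyclic loess and with array weights, and 3 with the dimmest probe sets left out. 1 filament end gene fell with array weights. 1 light chain kinase or phosphatase gene fell with the dimmest left out. Against a 1.2-fold change 1 of these and 1 crosslinker fell and 2 filament end genes rose. With 1 array left out, 1 to 2 kinase or phosphatase genes, 1 to 3 crosslinkers and 0 to 1 filament end genes fell, and 1 to 2 troponins rose. The cause of these moves was not tested.

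11 members that did not pass changed sign in at least 1 alternative. With the 75th percentile these were Myh6 (-0.0179), Myl10 (-0.0132) and Myl2 (-0.0035), with cyclic loess Myl10 (-0.0122), and with array weights Myo1f (-0.0235) and Tagln (0.0396). With 1 array left out, the change ranged from -0.0126 to 0.1092 for Actc1, -0.0303 to 0.1278 for Actn4, -0.0430 to 0.8422 for Cnn1, -0.0035 to 0.1652 for Myh4, -0.0590 to 0.0862 for Myh6, -0.0844 to 0.0013 for Myl1, -0.0350 to 0.0774 for Myl10, -0.0300 to 0.0751 for Myl2, -0.0125 to 0.1328 for Myo1f, -0.0306 to 0.3696 for Myo7a and -0.1415 to 0.0064 for Tagln. None of these passed the test in any of them.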
